A study of Drosophila melanogaster with 24 samples.

Results

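Sites where Isha and Su(Hw) were called together numbered 340, out of 4735 Isha peaks in mock-treated Kc167 cells, a female Drosophila line of embryonic origin. Sites were chosen by the positions of called peaks in 2 lists: an Isha peak on 2L, 2R, 3L, 3R, 4 or X was taken when it overlapped a Su(Hw) peak of the same mock-treated cells by 1 bp or more, whether or not CP190 or Mod(mdg4) was also there. The choice used the mock Isha and mock Su(Hw) lists, so the share of 7.18% of Isha peaks and all values of those lists describe the sites and test nothing. Read from the other side, 319 of the 4900 mock Su(Hw) peaks held Isha and 4581 did not. The Isha knockdown cells had received 12 µg of double-stranded RNA (dsRNA) against Isha 5 days earlier, and the mock cells were of the same line and mock treated. Chromatin immunoprecipitation and sequencing (ChIP-seq) covered 4 proteins, Isha, Su(Hw), CP190 and the 67.2 isoform of Mod(mdg4), in 24 libraries with 2 replicates in each of 12 groups, 8 of the libraries being inputs. The labels give a different antiserum for each Isha replicate and do not say whether replicates came from separate cultures.

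Su(Hw), a protein with zinc fingers, binds the insulator of the gypsy retrotransposon and many sites across the Drosophila genome, where it can block an enhancer from a promoter. CP190 is a BTB-domain protein brought to chromatin by several DNA-binding proteins and is common at promoters, while Mod(mdg4)67.2, also a BTB-domain protein, binds Su(Hw) and belongs to the gypsy insulator complex. Isha, encoded by CG4266, is named by the series title as a binder of su(Hw) mRNA needed for insulator function. The stated questions were how far Isha overlaps these insulator proteins and whether their association with chromatin depends on Isha. Peaks of Isha numbered 932 after knockdown and 4735 in mock cells, with no measure of Isha RNA or protein used here. The corresponding numbers were 4711 and 4900 for Su(Hw), 8880 and 8193 for CP190, and 1091 and 1305 for Mod(mdg4). There is 1 list per antibody and treatment, with positions only, so the differences below have no replicate check and no p-value. Shares carry 95% Wilson intervals and differences of shares 95% Newcombe intervals, which cover counting error over peaks and nothing else.

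The 340 sites were spread over all arms. They made up 8.30% of Isha peaks on X (79 sites, interval 6.71 to 10.2), 8.24% on 2L (66 sites) and 7.45% on 3L (62 sites). The shares were 6.82% on 2R (73 sites) and 5.62% on 3R (59 sites, interval 4.39 to 7.19), and chromosome 4 had a single site. The intervals of X and 3R overlapped. Neighbouring sites lay a median of 211498 bp apart, and 44 of 334 neighbour distances were within 10000 bp, so a minority came in pairs or small runs.

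Most of these sites were partial overlaps of neighbouring peaks rather than coincident peaks. The overlap had a median of 623.5 bp (quartiles 444.75 and 820), against a median Isha width of 1320 bp and a median width of 1197 bp for the Su(Hw) peak of each site. The midpoints were a median of 598 bp apart, and only 67 of 340 sites had midpoints within 250 bp. The midpoint of the Su(Hw) peak with the largest overlap fell inside the Isha peak at 203 sites and the Isha midpoint inside the Su(Hw) peak at 156 sites. At 104 sites (30.6%, interval 25.9 to 35.7) neither midpoint lay in the other peak. A Su(Hw) peak was wholly inside the Isha peak at 65 sites, and an Isha peak wholly inside the Su(Hw) peak at 40 sites.

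The 1 bp limit put several near neighbours on either side. The smallest overlaps were 1 bp in Ipp, which encodes an inositol phosphatase, 4 bp in Alh, 8 bp in E2f1, the activating E2F factor of the cell cycle, 22 bp near the proteasome gene Prosalpha6 and 27 bp in Naa35. Just outside, the gap between the peaks was 11 bp in Jarid2, 13 bp in the ribosomal protein gene RpS15, 18 bp in CG2540 and in CG14621, and 26 bp in Sod2, the mitochondrial superoxide dismutase. All 10 had CP190 without Mod(mdg4). Of the 340 sites, 18 overlapped by less than 100 bp and 228 by 500 bp or more, while 16 Isha peaks outside the group had a gap of up to 100 bp and 146 a gap of up to 1000 bp.

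CP190 was present at nearly all of the sites taken at 1 bp of overlap, and Mod(mdg4) was present at 75 of them and at hardly any other Isha peak. In the mock lists CP190 overlapped 314 of 340 sites, 92.4% (interval 89.0 to 94.7), where 67% of all Isha peaks did. The other Isha peaks had it at 2857 of 4395, 65.0%, a difference of 27.3 percentage points (interval 23.7 to 30.1). The shares were also set side by side within quartiles of Isha width. From the narrowest quartile to the widest, CP190 lay at 85.0%, 93.8%, 94.3% and 98.6% of the sites with Su(Hw), against 34.6%, 68.0%, 73.6% and 83.2% of the other Isha peaks. With the overlaps with Su(Hw) and with CP190 both called at 50% reciprocal overlap, CP190 lay at 46 of 83 sites, 55.4%. With both called by midpoints within 250 bp it lay at 74.6%. These settings made the CP190 call stricter along with the choice of sites. At 1 bp of overlap, only 4 of the 67 sites with midpoints within 250 bp lacked both CP190 and Mod(mdg4). By width, the difference was largest, 50.4 points (interval 41.6 to 56.7), among the narrowest peaks.

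Mod(mdg4) overlapped 75 of the 340 sites, 22.1% (interval 18.0 to 26.8), where 1.71% of all Isha peaks did. Only 6 of the other 4395 Isha peaks, 0.137%, held it, so 75 of the 81 Isha peaks with Mod(mdg4) also held Su(Hw). Seen from Su(Hw), the shares were close: Mod(mdg4) lay at 24.8% of Su(Hw) peaks with Isha and 24.7% of those without, a difference of 0.0323 points (interval -4.56 to 5.20). CP190 did differ there, at 92.8% of Su(Hw) peaks with Isha and 76.2% of those without, 16.5 points apart (interval 13.0 to 19.2). The sites thus fell into 75 with CP190 and Mod(mdg4), 239 with CP190 alone and 26 with neither, and none had Mod(mdg4) without CP190.

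With CP190 and Mod(mdg4) called the partners of Su(Hw), the 75 sites with both partners had a different shape from the 239 with CP190 alone. Their Isha peaks had a median width of 1210 bp, against 1462 bp with CP190 alone. The medians of their Su(Hw) peaks ran the other way, at 1572 bp with both partners and 1050 bp with CP190 alone. The overlap covered a median of 67.7% of the Isha peak where both partners were present and 36.6% where CP190 was alone. The Isha midpoint lay inside the Su(Hw) peak at 52 of 75 sites (69.3%, interval 58.2 to 78.6) against 95 of 239 (39.7%, interval 33.8 to 46.1). The 26 sites with neither partner had the narrowest Isha peaks, with a median of 820 bp, and the smallest overlaps, 400.5 bp.

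The 3 most coincident sites with both partners had a peak of every protein in both treatments. Coordinates are those of the lists, build dm6, counted from 1. In Myo81F, a myosin gene, the Isha peak chr3R:2084918-2089546 and the Su(Hw) peak chr3R:2085010-2089432 shared 95.5% of their combined length, written as an intersection over union of 0.955. The value was 0.931 at chr2L:23331866-23333084, whose nearest protein-coding gene is Tim23, and 0.890 at chr2R:1808717-1810804, nearest to CG41520. Each of these 3 had a peak in all 8 lists, as did 26 of the 340 sites (7.65%). In Myo81F the edges nearly coincided across proteins, with mock CP190 at chr3R:2084997-2089454 and mock Mod(mdg4) at chr3R:2085025-2089430. Knockdown Isha was at chr3R:2084991-2089485. Why the edges were shared was not tested. Intersections over union of 0.8 or more were seen at 15 sites, of which 7 had both partners. Next came Hyls1, a centriole gene, and Spn, which encodes the scaffold protein Spinophilin, with 0.851 and 0.850, and both lost Isha and kept the other 3 proteins after knockdown.

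Among sites with CP190 alone the best match was inside Hr4, a nuclear receptor of the ecdysone response, where Isha at chrX:1952727-1953559 and Su(Hw) at chrX:1952743-1953608 had an intersection over union of 0.926. CG13280 (0.922), CG4678 (0.871), puml (0.864) and CG13970 (0.850) followed, and after knockdown all 5 kept Su(Hw) and lost Isha. Sites with neither partner matched less well, and the best were in Syp, which encodes an RNA-binding protein (0.638), and vri, a bZIP repressor of the circadian clock (0.608). Snx27, a sorting nexin, psq, a BTB DNA-binding protein, and hppy, a kinase, were between 0.590 and 0.490. Of these 5, vri and psq kept Su(Hw) and the other 3 lost both peaks.

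Near a gene end, the sites stood somewhat below the other Isha peaks and far above the other Su(Hw) peaks. Without strand in the gene table, a start cannot be told from an end, and either was counted. The Isha midpoint was within 500 bp of a gene end at 173 sites, 50.9% (interval 45.6 to 56.2), where 57.2% of all Isha peaks were. The other Isha peaks stood at 57.7%, a difference of -6.80 points (interval -12.3 to -1.32). It varied with width, being 7.38 points in the narrowest quartile (interval -1.68 to 17.5) and -18.9 points in the widest (interval -30.6 to -8.33). Fewer sites covered 2 or more gene ends, 29.1% against 45.7% of the other Isha peaks (difference -16.6 points, interval -21.4 to -11.3). The Isha midpoint was inside a gene at 85.0% of the sites, against 85.5% of the other Isha peaks, with 85.4% over all.

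Su(Hw) peaks with Isha were much nearer to gene ends than other Su(Hw) peaks. They were picked by overlap with Isha peaks, 57.2% of which had midpoints within 500 bp of a gene end. The comparison therefore describes that choice. Their midpoints were within 500 bp of a gene end in 170 of 319 cases, 53.3%, against 15.8% of those without Isha, 37.5 points apart (interval 31.9 to 43.0). Median distances to a gene end were 376.5 bp with Isha and 4090.5 bp without. The makeups differed as well: 40.0% of sites with both partners and 58.6% of sites with CP190 alone had an Isha midpoint near a gene end (difference -18.6 points, interval -30.6 to -5.61). The 26 sites with neither partner lay a median of 4113.25 bp from a gene end.

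At a single site the midpoints of the 2 peaks often fell on different sides of a gene boundary. The lists give no summit, so where each protein sits within its peak is not resolved. The Isha midpoint was inside a gene at 289 sites and the Su(Hw) midpoint at 179. Isha was inside and Su(Hw) outside at 116 sites, 34.1% (interval 29.3 to 39.3), and the reverse held at 6. Both were inside a gene at 173 sites and both outside at 45. All 116 sites of the split kind had CP190.

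**Figure D1:**
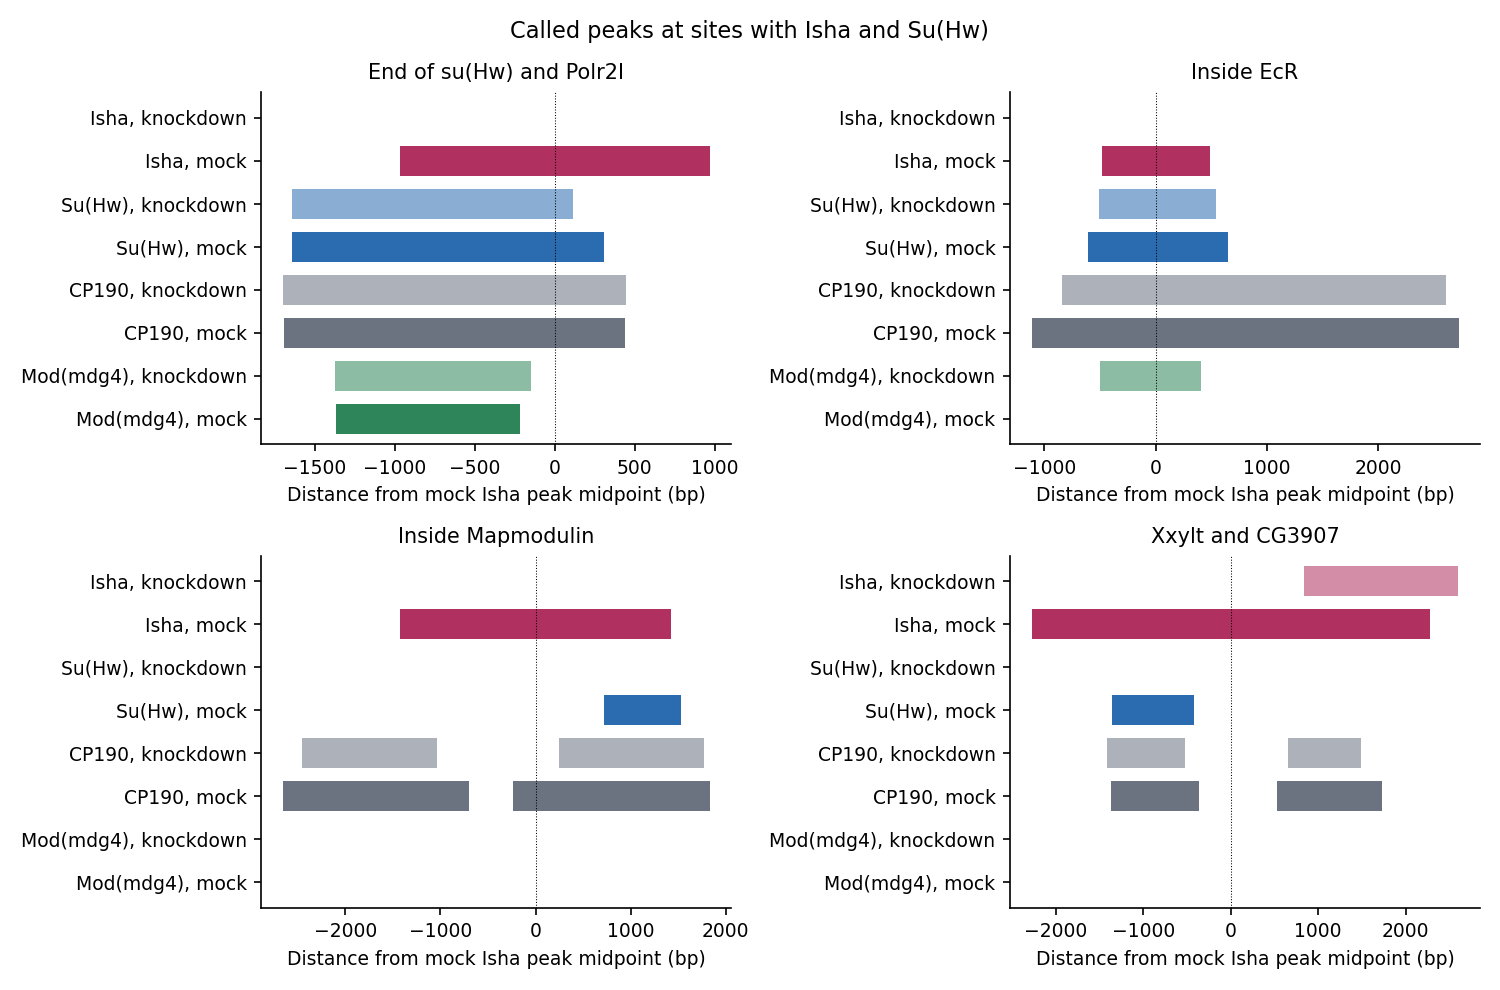
Called peaks at 4 sites, drawn as bars by distance in bp from the midpoint of the mock Isha peak, with knockdown above mock for each protein; every peak that overlaps the mock Isha peak is drawn, and an empty row means that none was called there. At su(Hw) and EcR only the Isha peak is missing after knockdown, and Mod(mdg4) is called at EcR only after knockdown. In Mapmodulin both Isha and Su(Hw) are missing, and at Xxylt Isha is kept without Su(Hw).

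After knockdown Isha was still called at 78 of the 340 sites, and most sites lost it. The kept share was 22.9% (interval 18.8 to 27.7), where 18.9% of all mock Isha peaks were kept. The other Isha peaks kept 815 of 4395, 18.5%, and the difference of 4.40 points had an interval of 0.0819 to 9.28. In quartiles of Isha width, from narrowest to widest, 8.00%, 16.5%, 28.6% and 46.6% of the sites kept Isha, against 3.13%, 10.3%, 19.2% and 41.0% of the other Isha peaks. The sites were higher in each quartile, by 4.87 points in the narrowest (interval 0.794 to 11.9), and the intervals of the 3 wider quartiles included 0. Kept peaks were mostly narrower after knockdown, at 66 of 78 sites (84.6%, interval 75.0 to 91.0) and 639 of 815 other Isha peaks (78.4%, interval 75.5 to 81.1), with a median width ratio of knockdown over mock of 0.777, against 0.827 at the other Isha peaks. The ratio used the knockdown peak with the largest overlap, so a mock peak called in pieces after knockdown counts as narrower.

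The difference between makeups was larger than that between sites and other Isha peaks. Isha was kept at 29 of 75 sites with CP190 and Mod(mdg4), 38.7%, and at 48 of 239 with CP190 alone, 20.1%, a difference of 18.6 points (interval 6.97 to 30.8). It was kept at 1 of 26 sites with neither. In quartiles of Isha width the shares were 19.2%, 40.9%, 53.3% and 58.3% with both partners and 5.08%, 10.1%, 21.6% and 45.0% with CP190 alone, on 12 to 26 sites a quartile with both partners. With CP190 alone, the sites stood at 20.1% (interval 15.5 to 25.6) and the other Isha peaks at 23% (656 of 2855, interval 21.5 to 24.6). The higher share over all sites was thus not seen within this makeup, but width was not matched there. Median Isha widths with CP190 alone were 1462 bp at the sites and 1829 bp at the other Isha peaks. Among the arms, X sites kept Isha most often, at 30 of 79 (38.0%, interval 28.1 to 49.0), and those on 3R least among the large arms, at 8 of 59 (13.6%, interval 7.03 to 24.5). The other Isha peaks stood at 21.2% on X and 13.2% on 3R.

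Su(Hw) stayed at most sites, and under the 1 bp rule less often than at Su(Hw) peaks without Isha. Within the Isha interval a knockdown Su(Hw) peak was called at 239 of 340 sites, 70.3% (interval 65.2 to 74.9), where 6.06% of all mock Isha peaks overlapped one. Counting the Su(Hw) peak of each site itself gave 255 of 340, 75% (interval 70.1 to 79.3), because at 16 sites the remaining Su(Hw) peak did not reach the Isha interval. Over peaks, 237 of 319 Su(Hw) peaks with Isha were kept, 74.3%, against 4166 of 4581 without, 90.9%, where 89.9% of all Su(Hw) peaks were. The difference was -16.6 points (interval -21.8 to -12.1). It was -7.36 points with 50% reciprocal overlap (interval -17.2 to -0.250) and -5.59 points with midpoints within 250 bp (interval -17.1 to 3.09). These 2 settings also applied to the match with the knockdown peak, so both the sites and the kept call changed. These 2 settings therefore do not test whether better-matched peaks differ less. With the mock and knockdown lists all cut to peaks wider than their median it was -2.86 points (interval -17.4 to 6.01). A wide mock peak with a narrow knockdown peak then counts as lost. The intervals with midpoints within 250 bp and with these wider peaks included 0. With the midpoint of a Su(Hw) peak inside the Isha peak the difference was larger, -21.2 points (interval -27.8 to -15.3).

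Width differed between the groups: Su(Hw) peaks with Isha had a median width of 1159 bp and those without 1532 bp. In quartiles of Su(Hw) width, from narrowest to widest, 48.3%, 92.9%, 95.9% and 100% were kept with Isha, against 66.2%, 95.8%, 99.9% and 100% without. The narrowest quartile had 143 of the 319 peaks with Isha and a difference of -17.9 points (interval -26.4 to -9.30). In the second quartile it was -2.95 points with an interval of -10.6 to 1.10, and in the third -4.00 points (interval -13.6 to -1.02). Loss of Su(Hw) was thus mostly a loss of narrow peaks, and among those it was more frequent with Isha. Width was not level within the narrowest quartile, where the medians were 761 bp with Isha and 842.5 bp without. The lists hold no height, so how far weaker peaks fell under the authors' threshold was not tested.

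**Figure D2:**
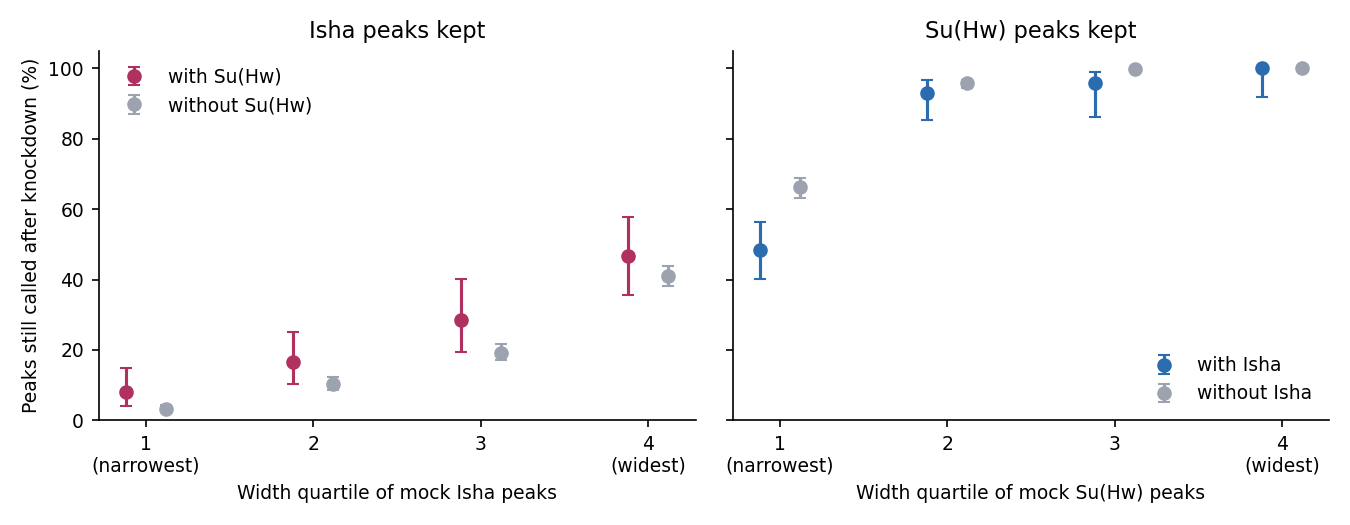
Percent of mock peaks still called after Isha knockdown, in quartiles of peak width, for Isha peaks with and without Su(Hw) (left) and Su(Hw) peaks with and without Isha (right); points are shares and bars 95% Wilson intervals over peaks. Isha was kept at 8.00% of the narrowest and 46.6% of the widest peaks with Su(Hw), and in the narrowest Su(Hw) quartile 48.3% were kept with Isha against 66.2% without.

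Sites with CP190 and Mod(mdg4) kept Su(Hw) almost without exception. Their own Su(Hw) peak was kept at 73 of 75, 97.3%, at 164 of 239 sites with CP190 alone, 68.6%, and at 18 of 26 with neither, 69.2%. Set against Su(Hw) peaks of the same makeup, the difference between those with and without Isha was -2.27 points where both partners were present (97.5% against 99.7%, interval -8.51 to -0.362). It was -24.2 points with CP190 alone (66.8% against 91.1%, interval -30.8 to -18.2) and -16.4 points with neither (65.2% against 81.6%, interval -36.8 to -0.213). Within the narrowest Su(Hw) quartile, peaks with CP190 alone were kept in 51 of 116 cases with Isha, 44.0%, and in 378 of 556 without, 68.0%. Their median widths still differed, at 772.5 bp with Isha and 870 bp without.

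With Isha and Su(Hw) counted together over the Isha interval, 178 sites kept Su(Hw) only (52.4%), 84 kept neither (24.7%), 61 kept both (17.9%) and 17 kept Isha only (5.00%). Sites with both partners were 45, 1, 28 and 1 in that order, and sites with CP190 alone 122, 69, 33 and 15. Of the 26 with neither partner, 11 kept Su(Hw) only, 14 kept neither and 1 kept Isha only. Sites that kept Isha kept Su(Hw) in the Isha interval in 78.2% of cases and sites that lost it in 67.9%, and the interval of the difference included 0 (10.3 points, -1.40 to 20.0). Sites that lost Su(Hw) there had a median Su(Hw) width of 799 bp, against 1338 bp where it was kept, while median Isha widths were 1375 bp where it was lost and 1294 bp where it was kept.

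**Figure D3:**
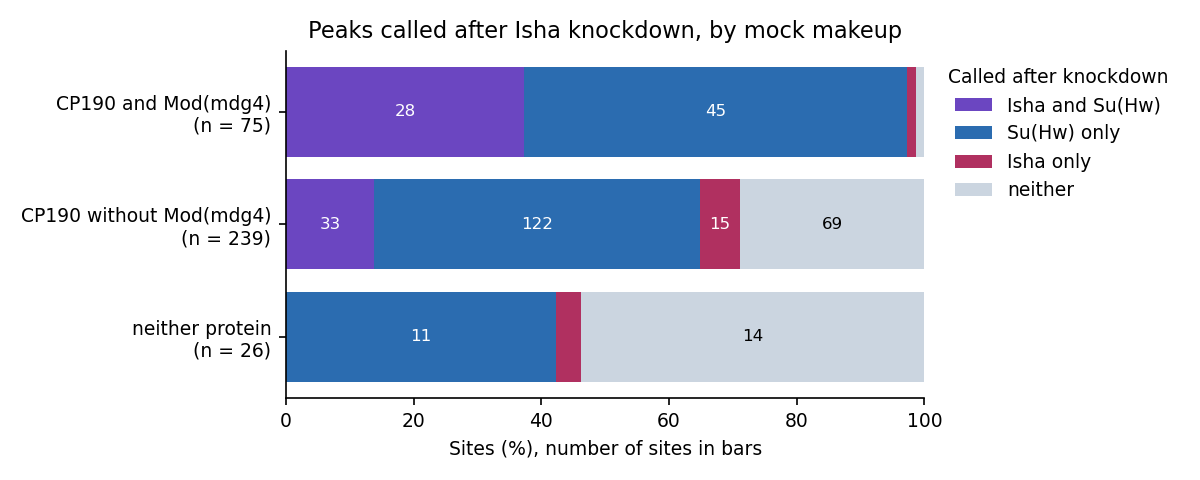
Peaks called over the mock Isha interval after Isha knockdown at the 340 sites, as percent of the sites of each mock makeup, with numbers of sites in the bars. With CP190 and Mod(mdg4), 28 of 75 sites kept both peaks and 1 kept neither, whereas 69 of 239 sites with CP190 alone kept neither.

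The widest Isha peaks of each outcome gave named examples. Both peaks were kept next to Vsp37A, in Snap25, a SNARE of synaptic vesicle fusion, in the translation genes eIF1 and eRF3, and in mnb, a protein kinase gene. At Snap25 Isha was called as 5 separate peaks after knockdown and as 1 peak, chr3L:24168842-24176111, in mock cells. Su(Hw) had 2 peaks there in each treatment, at chr3L:24168965-24173715 and chr3L:24173950-24175980 after knockdown and at chr3L:24168959-24173722 and chr3L:24173944-24175987 in mock cells. CP190 and Mod(mdg4) also had 2 peaks each in both treatments. Their edges were nearly those of Su(Hw), as with mock CP190 at chr3L:24168953-24173728, and the reason was not tested. At the other 4 of these wide peaks the knockdown Isha and Su(Hw) peaks no longer overlapped each other. Over all 61 sites that kept both, they still overlapped at 52, 85.2% (interval 74.3 to 92.0). Su(Hw) alone was kept in CG42553, Prosalpha4, eIF5B, the corepressor gene Sin3A and PCNA2, a paralogue of the sliding clamp of replication. In Prosalpha4 the Su(Hw) peak over the Isha interval after knockdown, chrX:16278109-16278458, did not overlap the site's mock Su(Hw) peak, chrX:16280120-16281186. That mock peak was itself kept, outside the Isha interval. PCNA2 had 2 Su(Hw) peaks over the Isha interval in mock cells and 1 after knockdown.

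Isha alone was kept in CG15237, Xxylt, BTBD9, Ankle2 and CG10602. At CG15237 the Su(Hw) peak itself was kept too, outside the Isha interval. Neither was called over the Isha interval in awd, a nucleoside diphosphate kinase, near Prosalpha6, in Uba1, the ubiquitin-activating enzyme, in Mapmodulin and in Vha68-2, a subunit of the vacuolar proton pump. Prosalpha6 is 1 of the edge overlaps, and its Su(Hw) peak was kept. In Mapmodulin the mock peaks were chr2R:17869563-17872409 for Isha and chr2R:17871707-17872514 for Su(Hw), and CP190 was still called at chr2R:17871229-17872756 after knockdown. All 5 of these sites had CP190 without Mod(mdg4).

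Where the peaks sat relative to the gene went with whether Su(Hw) was kept. At the 116 sites with Isha inside a gene and Su(Hw) outside, the site's own Su(Hw) peak was kept at 66, 56.9% (interval 47.8 to 65.5), against 189 of the other 224 sites, 84.4%, a difference of -27.5 points (interval -37.5 to -17.3). With both in a gene 86.7% were kept, and with both outside 73.3%. Su(Hw) widths differed as well, with medians of 970 bp, 1357 bp and 974 bp for these 3 placements. For sites with CP190 alone in the narrowest Su(Hw) quartile, the shares were 19 of 66 with Isha inside and Su(Hw) outside (28.8%, interval 19.3 to 40.6), 26 of 42 with both inside (61.9%) and 10 of 16 with both outside (62.5%).

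The same placement was compared with Su(Hw) peaks that lacked Isha. Outside genes but within 500 bp of a gene end, 65 of 118 Su(Hw) peaks with Isha were kept, 55.1%, against 370 of 430 without, 86.0%, a difference of -31.0 points (interval -40.4 to -21.6). Their widths had medians of 935.5 bp with Isha and 1475 bp without, and in the narrowest quartile the shares were 34.7% with Isha and 52.2% without (difference -17.5 points, interval -30.8 to -3.03). Inside genes the difference was -5.72 points (86.0% with Isha and 91.7% without, interval -11.9 to -1.09), and in the narrowest quartile its interval included 0 (-6.42 points, -20.0 to 5.65). Width was not matched within the narrowest quartile. These placements were chosen after the values of the sites had been seen.

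**Figure D4:**
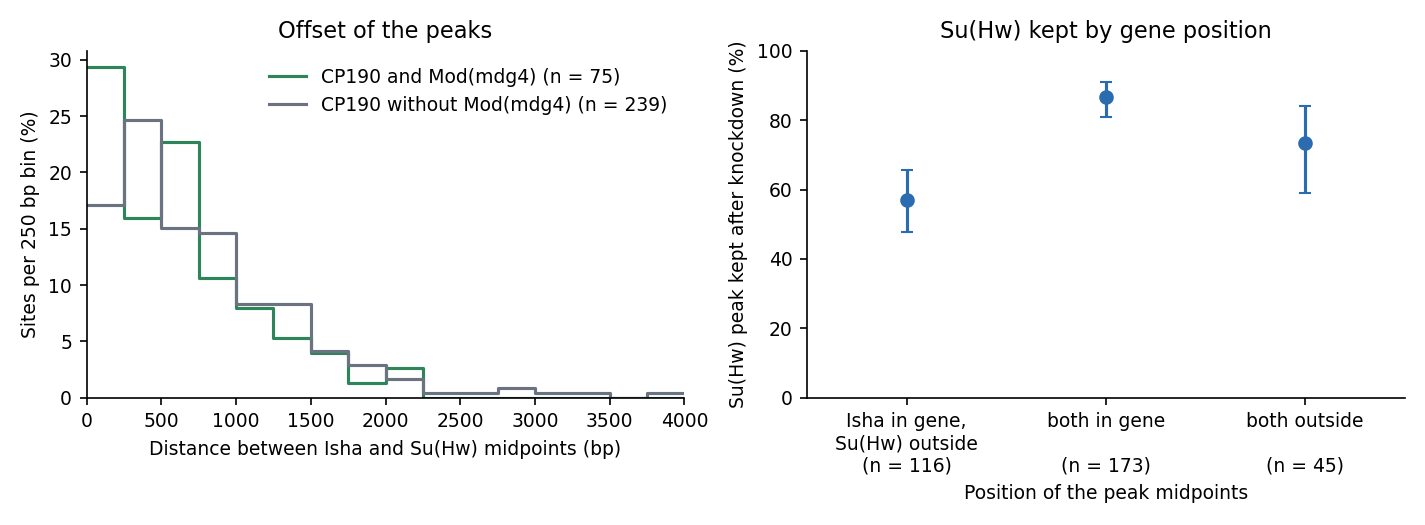
Left, distance in bp between the Isha and Su(Hw) midpoints, as percent of sites per 250 bp bin, for sites with CP190 and Mod(mdg4) and with CP190 alone; right, percent of sites whose own Su(Hw) peak was kept after knockdown, by position of the midpoints relative to genes, with 95% Wilson intervals. Kept shares were 56.9% with Isha in a gene and Su(Hw) outside, 86.7% with both inside and 73.3% with both outside.

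CP190 was still called at nearly all of these sites. Of the 314 with mock CP190, 308 had a knockdown CP190 peak, 98.1% (interval 95.9 to 99.1), where 95.7% of all Isha peaks with CP190 did. The other Isha peaks with CP190 stood at 95.5%, 2.60 points lower (interval of the difference 0.300 to 3.93). At 68 of the 69 sites with CP190 alone that kept neither Isha nor Su(Hw) over the Isha interval, CP190 was still called. Counted over CP190 peaks themselves and not over the Isha interval, 93.8% of all mock CP190 peaks were kept.

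Mod(mdg4) was kept at 66 of 75 sites, 88.0% (interval 78.7 to 93.6), where 81.5% of all Isha peaks with Mod(mdg4) kept it. Both shares count any knockdown Mod(mdg4) peak over the mock Isha peak. Counted over Mod(mdg4) peaks themselves, 74% of all mock Mod(mdg4) peaks were kept. None of the other 6 Isha peaks with Mod(mdg4) kept it. In the other direction, 24 of the 265 sites without Mod(mdg4) in mock cells had it after knockdown, 9.06% (interval 6.16 to 13.1), and all 24 had CP190 and kept Su(Hw). Isha was kept at 6 of the 24, 25.0% (interval 12.0 to 44.9), against 22.9% of all 340 sites. Su(Hw) peaks that had no Mod(mdg4) in mock cells had it after knockdown in 23 of 240 cases with Isha, 9.58%, and 83 of 3448 without, 2.41%, 7.18 points apart (interval 4.01 to 11.6). In quartiles of Su(Hw) width the shares were 3.05%, 15.2%, 26.1% and 15.0% with Isha and 0.376%, 1.96%, 4.81% and 3.60% without, on 20 to 131 peaks a quartile with Isha.

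The su(Hw) gene itself, chr3R:14304455-14308589, had a site at the end it shares with Polr2I, a subunit of RNA polymerase II. Of the 26 insulator and architectural genes examined it alone had a site within 1000 bp, where 4.17% of all protein-coding genes did, although 23 of them had an Isha peak and 2 a Su(Hw) peak that near. No Isha peak was called there after knockdown, against chr3R:14308003-14309939 in mock cells. Su(Hw) was at chr3R:14307328-14309085 after knockdown and chr3R:14307326-14309275 in mock cells, CP190 at chr3R:14307268-14309417 and chr3R:14307277-14309407, and Mod(mdg4) at chr3R:14307593-14308821 and chr3R:14307601-14308755. The 3 insulator proteins therefore remained in nearly the same place without a called Isha peak.

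Over all 13922 protein-coding genes, 580 had a site within 1000 bp, 4.17%, while 49.7% had an Isha peak and 22.6% a Su(Hw) peak that near. The lists are small and were chosen with earlier results known, so their counts are given as a description. Among the ecdysone genes 2 of 11 had a site, EcR, the receptor of the hormone, and Hr4 with 2 sites. Inside EcR, Isha at chr2R:6150793-6151764 was lost, Su(Hw) was at chr2R:6150773-6151817 after knockdown and chr2R:6150668-6151928 in mock cells, and Mod(mdg4) appeared at chr2R:6150782-6151683 after knockdown only. Of 16 neuronal genes 3 had a site within 1000 bp: nSyb, a synaptobrevin, Snap25, and slo, a calcium-activated potassium channel. The slo site gained Mod(mdg4) after knockdown. At nSyb and slo the Isha peak lay outside the gene, near Bgb and in Ppox, and only the Su(Hw) peak reached the gene. The 2 peaks of the nSyb site shared 83 bp. These lists hold long genes, with median lengths of 50703 bp and 37056.5 bp against 2163 bp over all genes, and no matching on length was done.

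Of 10 blood cell genes, also long with a median of 18461 bp, 3 had a site (30.0%, interval 10.8 to 60.3): ush, a GATA cofactor, pnt, an ETS transcription factor, and sv, a Pax protein. Both ush and pnt had 3 sites. Of the ush sites 2, at chr2L:476853-480505 and chr2L:489920-492711, kept all 4 proteins, and the one at chr2L:524481-526240 had neither partner, lost both Isha and Su(Hw) and had CP190 only after knockdown. All 3 pnt sites had both partners and kept Su(Hw), CP190 and Mod(mdg4), and 1 of them kept Isha. At chr3R:23327391-23329992 the Su(Hw) peak over the Isha interval after knockdown, chr3R:23328931-23329531, did not overlap the site's mock Su(Hw) peak, chr3R:23329547-23330577. That mock peak was overlapped by the knockdown Su(Hw) peak of the neighbouring pnt sites, chr3R:23330221-23333315. The sv site, on chromosome 4 inside Cals, lost Isha alone.

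None of 16 Hox and segmentation genes had a site, and only 1 of them had an Isha peak within 1000 bp and 4 a Su(Hw) peak. Ribosomal protein genes had 4 of 92, 4.35%, close to the share of all genes: RpL17, RpL28, RpL36 and RpLP0. Isha was common at them, with 84 of the 92 having an Isha peak within 1000 bp and 10 a Su(Hw) peak. RpL17 lost both peaks. The sites at RpL28, RpL36 and RpLP0 kept both, but the knockdown Isha and Su(Hw) peaks there no longer overlapped each other, and the Su(Hw) peak of the RpL36 site was not within 1000 bp of the gene.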

How the data were processed

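The authors deposited 8 peak lists with chromosome, start and end only, 1 per antibody and treatment, named as overlaps and read as peaks joined over both replicates. "SwHw" in 1 name was read as Su(Hw). Per the submitters' processing notes, Bowtie2 2.4.1, SAMtools 1.9, Picard 2.22.2 and build dm6 were used. Caller, threshold and joining were not given in the sources used here. Depth is unknown, since no score or count is listed.

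Peaks on the main arms were used (1 to 5 per list, on Y, were left out), counted from 1. A peak was kept when a knockdown peak of the same protein overlapped it by 1 bp or more. At the sites and other Isha peaks, CP190 and Mod(mdg4) counted as kept when a knockdown peak overlapped the mock Isha peak. Genes came from RefSeq (Release 6 plus ISO1 MT, no strand). Named sites were the 5 best-matched per makeup, the 5 widest per outcome, the 5 on either side of the limit and list genes with a site within 1000 bp. Members and lists were chosen with earlier results of these data known. Z4 matched 2 genes and was left out. Python 3.11.15, pandas 2.3.3, SciPy 1.17.1 and statsmodels 0.14.6 were used, and the steps were tested on simulated data.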

Additional observations from a re-analysis of the deposited data

How the results depend on the processing

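The lists hold no score, so a limit to peaks wider than the median of their list (the wider peaks) stood in for a stricter threshold. That limit applied to mock and knockdown lists alike. At 50% reciprocal overlap and with midpoints within 250 bp, every overlap was called by that setting, also those with CP190, Mod(mdg4) and knockdown peaks. Shares under these settings therefore differ from those at 1 bp in the call as well as in the sites. At 50% reciprocal overlap there were 83 sites, with midpoints within 250 bp 67, with the midpoint of any Su(Hw) peak inside the Isha peak 204 and among the wider peaks 40. In that order CP190 lay at 55.4%, 74.6%, 95.6% and 97.5% of the sites. Mod(mdg4) lay at 28.4% with midpoints within 250 bp and 35.0% among the wider peaks. Isha was kept at 17.9% with midpoints within 250 bp and at 28.9% with the Su(Hw) midpoint inside, where the difference from the other Isha peaks was 10.5 points (interval 4.61 to 17.2). That difference was 8.92 points at 50% reciprocal overlap (interval 1.13 to 19.1), 8.55 points with midpoints within 250 bp (interval 1.14 to 19.4) and 8.30 points among the wider peaks, where the interval of -3.21 to 23.7 included 0. Su(Hw) was kept at 80.0% of sites among the wider peaks, and at 75% when the Su(Hw) peak of each site was used, an alternative added after seeing the data. The difference in kept Su(Hw), with Isha minus without, was -21.2 points with the Su(Hw) midpoint inside (interval -27.8 to -15.3). It was -7.36 points at 50% reciprocal overlap (interval -17.2 to -0.250). With midpoints within 250 bp it was -5.59 points and among the wider peaks -2.86 points, both with intervals that included 0. CP190 was kept at 89.1% at 50% reciprocal overlap, 88.0% with midpoints within 250 bp and 100% among the wider peaks, and Mod(mdg4) at 94.7% with midpoints within 250 bp. Sites near a gene end were 41.8% with midpoints within 250 bp, 27.9% in a 250 bp window and 67.4% in a 1000 bp window. The causes were not tested. The 8.92, 8.55, 8.30 and -21.2 points above are among the other 40 of 65 values. These 40 stayed inside the interval of the reported value or, for counts, within 1.5 times, and none changed direction. They include the merging of peaks within 500 bp and the use of all sequences. Leaving out the 15 sites with an intersection over union of 0.8 or more, also added later, left Isha kept at 22.8% and Su(Hw) at 68.9%. No paired analysis was possible because the lists join both replicates and carry no replicate number, and no replicate could be left out. The share with the TGCATA motif was not run, since no genome sequence was used here.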

Other observations

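The share of Isha peaks that held Su(Hw) was about the same in both treatments. Of the 932 knockdown Isha peaks 64 overlapped a knockdown Su(Hw) peak, 6.87%, against 7.18% in mock cells (difference -0.314 points, interval -1.96 to 1.62). Of these 64, 53 lay at the 340 sites and 9 at other mock Isha peaks. Counted over mock Isha peaks, 48 of the 4395 other Isha peaks (1.09%) overlapped a Su(Hw) peak called after knockdown. They can share places with the 64 knockdown peaks. Of those 48 peaks 42 had CP190 in mock cells and 12 kept Isha, and 4 of the 49 knockdown Su(Hw) peaks concerned overlapped a mock Su(Hw) peak.

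Few sites touched noncoding RNA genes. The snRNA gene snRNA:U5:35D lay at 1 site and no snRNA gene at the other Isha peaks. No tRNA gene lay at any of the 340 sites and 6 of the other Isha peaks touched one. snoRNA genes lay at 3 sites and 53 other Isha peaks, miRNA genes (mir-303 and mir-4949) at 2 sites and 28 other Isha peaks. Long noncoding RNA genes lay at 18 sites, 5.29% (interval 3.37 to 8.21), against 146 other Isha peaks, 3.32% (interval 2.83 to 3.89).

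Genes near both proteins did not always have an overlap. Besides the 580 genes with a site within 1000 bp, 599 had both an Isha and a Su(Hw) peak that near but no site, and these were longer, with a median of 14264 bp against 4259.5 bp for genes with a site.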
